A study of Mus musculus with 13 samples.

Results

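Lysosomal genes were examined in induced pluripotent stem (iPS) clones, embryonic stem (ES) cells and the fibroblasts that iPS cells are made from. The set comprised 39 genes chosen by name: enzymes that act in the lysosome, their helper proteins, proteins of the lysosomal membrane, the proton pump that makes the lysosome acid, sorting receptors and transcription factors of the TFEB family. A gene was represented by the array row that carries its symbol alone, and by the row with the highest mean signal where it had several. This gave 36 of the 39 genes, among 16661 rows tested. Cd63, Sort1 and M6pr had no such row and were not analysed here.

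RNA signal was read on Affymetrix exon arrays (Mouse Exon 1.0 ST) from 13 mouse samples of 7 lines. The lines are iPS clones 1, 2, 5 and 6, mouse embryonic fibroblasts (MEF) and ES cells named MPSVII, with 2 arrays each, and the control ES line B6 Blu, with 1 array. MPSVII is mucopolysaccharidosis type VII, a storage disease of the lysosome caused by loss of beta-glucuronidase, the product of Gusb. Each clone is a line grown from a picked colony after transduction with an OSK lentivirus, and the growth text, which is the same for every sample, states that colonies were expanded on feeder layers of MEF. Titles and design text give the fibroblasts, the clones and the ES line as MPSVII, while the source field of clones and fibroblasts gives wildtype B6. The strain is C57Bl/6 for all lines but B6 Blu, which is C57BL/6NTac. No label says whether the arrays of a line came from separate cultures, so p-values measure the spread between these arrays, which may be technical. Gusb itself was dim, with 3.47 to 4.25 on the clone arrays, 5.07 and 3.98 on those of MEF, 3.76 and 3.72 on those of MPSVII ES and 4.50 on that of B6 Blu ES.

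Lysosomes break down lipids, sugar chains, glycogen and proteins with hydrolases that work at acid pH. Most hydrolases reach the lysosome by binding mannose 6-phosphate receptors in the Golgi, and a vacuolar proton pump keeps its lumen acid. The factors TFEB, TFE3 and MITF are known to bind DNA with the core CACGTG, often within a longer palindrome of 10 letters, in promoters of lysosomal genes. When nutrients are plentiful, the kinase complex mTORC1 on the lysosomal surface holds TFEB and TFE3 in the cytoplasm, so that their activity is set largely after transcription. Macrophages are known for a very large lysosomal system.

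In the clones most of the set had lower RNA signal than in MEF. All values are log2 signal, a difference of 1 is 2-fold, and errors after ± are limma standard errors. Of 36 genes 31 were lower (86.1%) and 0 higher at an adjusted p under 0.05 (limma, Benjamini-Hochberg over all rows). Over all rows 27.0% were lower and 7.78% higher in that comparison. The genes of the set were chosen with earlier results of these data known, so its counts here and below are no independent test. The median difference of the set was -1.94, against -0.09 for all rows. In 31 genes all 8 clone arrays lay below both MEF arrays, against 26.1% of all rows, and in 29 genes all 11 arrays other than MEF did, against 23.9% of all rows. MEF had the highest mean of the 7 lines in 33 of the 36 genes, and the exceptions were Manba, Tfe3 and Tfeb.

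**Figure D1:**
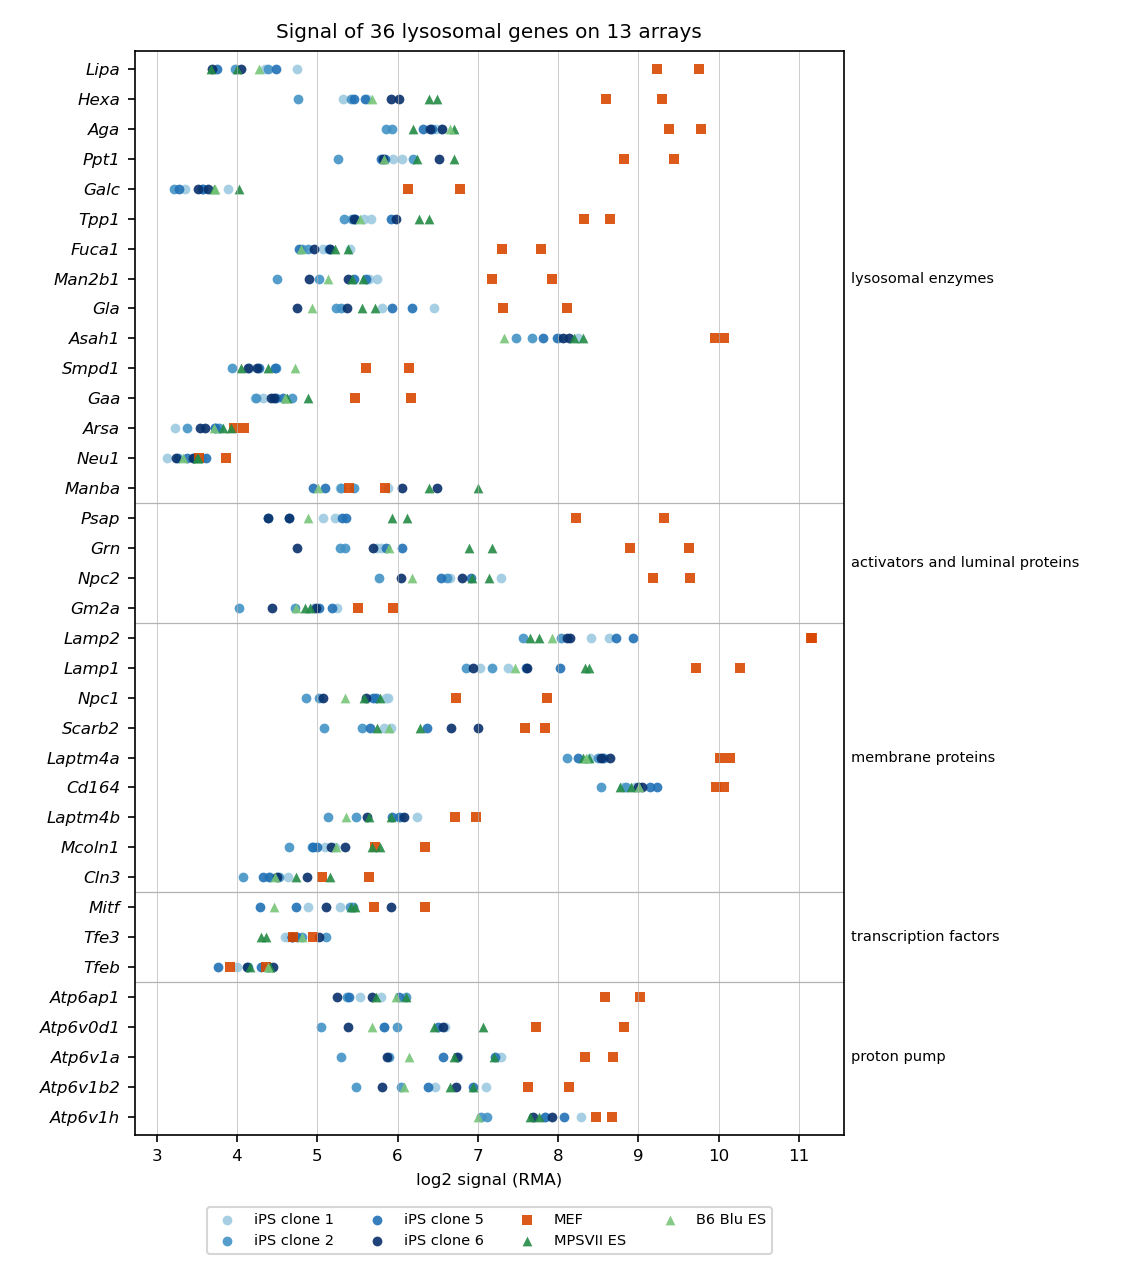
Each row is a lysosomal gene and each symbol 1 array, with log2 signal on the x axis; circles are iPS clones, squares MEF and triangles ES lines. The squares stand to the right of all other symbols in 29 of 36 genes, while in Manba, Tfe3 and Tfeb the lines overlap or another line is highest.

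Both ES lines were lower than MEF in the same comparison. MPSVII ES had 27 genes lower and 1 higher, with a median of -1.64, where 20.0% of all rows were lower and 6.70% higher. B6 Blu ES had 28 lower and 0 higher, with a median of -2.15, where 18.0% of all rows were lower and 3.30% higher. These comparisons subtract the same 2 MEF arrays as the clones do, so they are not independent of one another. In all 3 comparisons 26 genes were lower, 5 were lower in 1 or 2 of them and 5 in none. The set remained below MEF under other scalings of the arrays, although the split in the clones changed to 26 lower and 2 higher (Manba and Tfe3) on quantile-normalized arrays, stayed at 31 and 0 on median-centred arrays and was 30 and 0 on loess-normalized arrays.

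Markers of macrophages, like most of the lysosomal genes, were higher in MEF than in the clones and both ES lines. Among the clones they did not follow the same order. Lysosomal genes lay lowest in clone 2, with a median deviation from the clone mean of -0.25, against 0.03 for macrophage markers. Macrophage markers lay lowest in clone 6, at -0.21, against 0.03 for lysosomal genes. The mean signal of the macrophage markers in the clones was near the array median, which was 3.97 to 4.45 over the 13 arrays. Their order among the clones therefore cannot show where the lysosomal signal of MEF came from. In the clones all 15 macrophage markers fell relative to MEF, and their mean log2 signal was 8.60 and 8.33 on the MEF arrays, 3.80 to 4.30 in the clones, 4.04 and 4.11 in MPSVII ES and 3.82 in B6 Blu ES. Lcp1, an actin-bundling protein of blood cells, stood at 9.71 and 9.36 in MEF and 2.73 to 3.34 in the clones, and Tyrobp, a signalling adaptor of myeloid cells, at 11.95 and 11.86 and 4.83 to 6.13. Fibroblast markers were also lower, 14 of 14 in the clones, with a mean signal of 7.56 and 7.11 in MEF, 4.11 to 4.99 in the clones, 4.49 and 4.45 in MPSVII ES and 5.24 in B6 Blu ES. Of these, the matrix gene Postn was at -6.04 and the mesenchymal factor Prrx1 at -5.25 in the clones minus MEF. Of 15 pluripotency markers 13 were higher in the clones, with a mean signal of 3.98 and 3.92 in MEF and 6.46 to 7.44 in the clones, led by Tdgf1 at 8.62 and Dppa4 at 6.61. The MEF arrays thus stood apart from all others on each of the 3 marker lists. These lists were chosen with earlier results of these data known, so their counts are no independent test. Over all rows 27.0% were lower and 7.78% higher in the clones minus MEF. How much of the lysosomal signal of MEF came from macrophages was not tested, and in these bulk samples fewer cells of a type and less RNA per cell cannot be told apart.

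**Figure D2:**
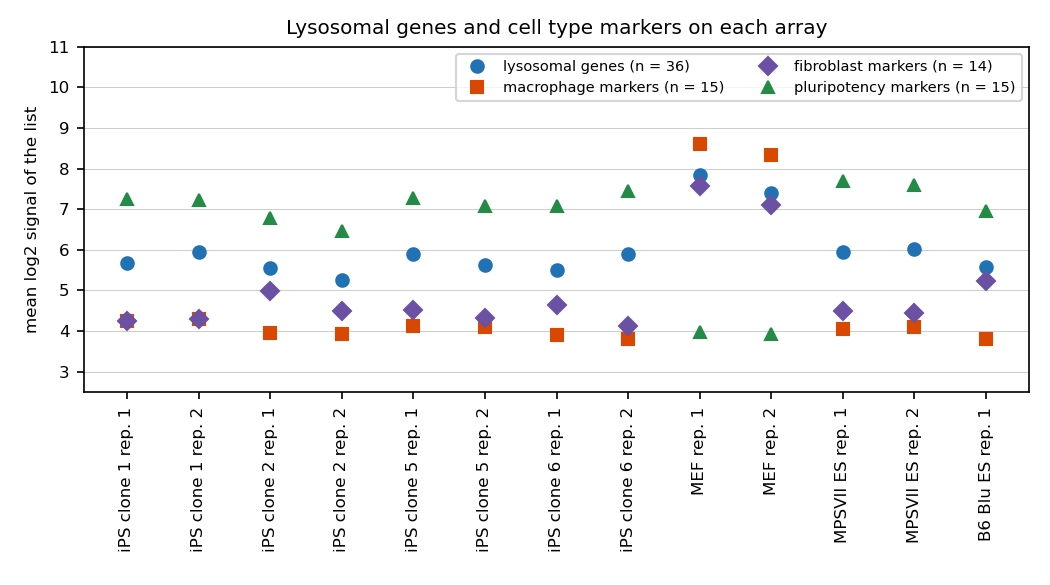
Mean log2 signal on each of the 13 arrays for the 36 lysosomal genes and for markers of macrophages, fibroblasts and pluripotent cells. Macrophage markers lie between 3.80 and 4.30 on the clone arrays and at 8.60 and 8.33 on the MEF arrays, where the lysosomal genes are also highest.

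In the clones 1 of the 3 transcription factors of the set fell and 0 rose relative to MEF. Over all rows 27.0% were lower and 7.78% higher. The factors had a median of -0.04, against -0.09 for all rows. Tfeb was at 3.76 to 4.45 in the clones (median 4.22), 3.91 and 4.36 in MEF, 4.16 and 4.41 in MPSVII ES and 4.38 in B6 Blu ES. The clone arrays spanned those of all other lines, and its difference from MEF was 0.06 ± 0.20 in the clones (adjusted p = 0.876). Tfeb lay near the array median, which was 3.97 to 4.45 over the 13 arrays, and below it on 4 of them. This limits how far a fall of Tfeb could be seen. Tfe3 was at 4.60 to 5.11 in the clones (median 4.72), 4.95 and 4.70 in MEF, 4.30 and 4.37 in MPSVII ES and 4.82 in B6 Blu ES. Its difference from MEF was -0.04 ± 0.15 in the clones (adjusted p = 0.895), but 0.40 after quantile normalization (adjusted p = 0.0186), so its sign depended on the scaling. Mitf, which also drives pigment cell and osteoclast genes, was at 4.29 to 5.92 in the clones (median 5.19), 6.34 and 5.70 in MEF, 5.41 and 5.47 in MPSVII ES and 4.46 in B6 Blu ES. It fell by 0.89 in the clones (adjusted p = 0.014), with 1 clone 6 array between the MEF arrays. That call was lost after quantile normalization (-0.21), after loess normalization (-0.41) and without MEF replicate 1 (-0.57). Tfec, a relative of these factors known from macrophages and no member of the set, stood at 6.75 and 7.18 in MEF against 2.69 to 3.82 in the clones, a difference of -3.78 ± 0.26 (adjusted p = 1.02e-06). Its MEF arrays stood above all clone arrays.

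The letters that these factors are known to bind were looked for in 300-base windows from 250 bases before to 50 bases after each RefSeq start (assembly GRCm38.p6), on both strands. Windows were found for 31 of the 39 genes, 38 windows in all. The core CACGTG was present in a window of 9 genes (29%), against 8.09% of all 27025 genes, and in 9 of the 38 windows, against 7.15% of all 32851 windows. The longer TCACGTG, which contains the core, was present for the same 9 genes, against 4.29% of all genes and 3.77% of all windows. The full palindrome, which is TCACGTG with G before it and AC after it and contains both, was present for Cln3, against 0.37% of all genes and 0.326% of all windows. The stretches that hold the core are shown because they are the letters the TFEB family reads; CACGTG is in capitals, each line runs 5′ to 3′ on the gene's strand, and the genes other than Cln3 were chosen after the matches were seen.
Lamp1 (chr8:13159088-13159160, plus strand): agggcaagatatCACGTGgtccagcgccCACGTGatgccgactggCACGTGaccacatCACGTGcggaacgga
Cln3 (chr7:126583340-126583397, minus strand): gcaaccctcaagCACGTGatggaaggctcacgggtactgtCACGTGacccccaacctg
Mcoln1 (chr8:3500436-3500491, plus strand): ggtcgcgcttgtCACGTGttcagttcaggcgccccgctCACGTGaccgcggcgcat
Gla (chrX:134601182-134601244, minus strand): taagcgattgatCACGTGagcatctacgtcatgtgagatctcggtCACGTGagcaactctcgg
Cd164 (chr10:41519401-41519430, plus strand): cgccgggctgctCACGTGaccggcgcgcgc
Gaa (chr11:119267811-119267840, plus strand): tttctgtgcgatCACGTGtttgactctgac
Atp6v1a (chr16:44139373-44139402, minus strand): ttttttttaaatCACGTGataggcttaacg
Atp6v0d1 (chr8:105566050-105566079, minus strand): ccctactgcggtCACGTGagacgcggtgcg
Arsa (chr15:89477425-89477452, minus strand): tcaactcagtgtCACGTGttgtctgctc
Lamp1 held 4 copies of the core within 73 bases before its start, Cln3, Mcoln1 and Gla held 2, and the others 1. In Atp6v0d1 the copy begins 3 bases before the start and runs over it, and in Arsa it begins 16 bases before.

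Most genes with the core and most without it fell in the clones relative to MEF. Of the 9 genes with it 8 were lower, with a median difference of -1.39 and a range from -2.66 (Lamp1) to -0.44 (Arsa). Of the 21 with a window, a row and no core 17 were lower, with a median of -2.52 and a range from -5.31 (Lipa) to 0.06 (Tfeb). The 6 genes with a row but no window were all lower, with a median of -1.67. In that comparison 27.0% of all rows were lower. A match is a string of letters and not a measured binding site, and a core may lie outside the window.

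Against MEF 12 of the 15 enzymes fell in the clones and 0 rose, where 27.0% of all rows were lower and 7.78% higher. The median of the enzymes was -2.27. Lipa, the acid lipase that frees cholesterol and fatty acids from lipoprotein lipids, had the largest measured difference of the whole set. Its signal (row 6872783) was 3.70 to 4.75 in the clones (median 4.20), 9.76 and 9.23 in MEF, 3.68 and 4.0 in MPSVII ES and 4.28 in B6 Blu ES. The 2 MEF arrays stood far above the other 11, and the difference of the clones from MEF was -5.31 ± 0.24 (adjusted p = 6.96e-08). In all the pluripotent lines Lipa lay near the median of its array, which was 3.97 to 4.45 over the 13 arrays, so no fold is given for it.

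Most enzymes of sphingolipid and ganglioside breakdown were lower as well. Hexa, the alpha subunit of beta-hexosaminidase A, was at 4.76 to 6.02 in the clones (median 5.52), 9.30 and 8.59 in MEF, 6.39 and 6.49 in MPSVII ES and 5.68 in B6 Blu ES. It fell in the clones to a difference of -3.43 ± 0.22 from MEF (adjusted p = 5.94e-07), and the arrays of clones, MPSVII ES and MEF formed 3 ranges that did not overlap. Galc, which removes galactose from galactosylceramide of myelin, was at 3.21 to 3.89 in the clones (median 3.54), 6.78 and 6.13 in MEF, 4.02 and 3.72 in MPSVII ES and 3.73 in B6 Blu ES, a difference of -2.96 ± 0.22 (adjusted p = 1.54e-06). Outside MEF it lay at or below the median of all rows on its array. Gla, the X-linked alpha-galactosidase A, was at 4.75 to 6.46 in the clones (median 5.59), 8.11 and 7.32 in MEF, 5.56 and 5.72 in MPSVII ES and 4.94 in B6 Blu ES, a difference of -2.08 ± 0.25 (adjusted p = 5.97e-05). Asah1, acid ceramidase, was at 7.48 to 8.25 in the clones (median 8.0), 10.07 and 9.95 in MEF, 8.20 and 8.30 in MPSVII ES and 7.33 in B6 Blu ES, a difference of -2.08 ± 0.14 (adjusted p = 9.86e-07). In Gla and Asah1, too, both MEF arrays lay above the other 11. Smpd1, acid sphingomyelinase, was at 3.94 to 4.48 in the clones (median 4.20), 6.15 and 5.61 in MEF, 4.39 and 4.06 in MPSVII ES and 4.72 in B6 Blu ES, a difference of -1.64 ± 0.19 (adjusted p = 5.82e-05; -1.06 after quantile normalization). Arsa, the sulfatase of sulfatide, was dim on every array, at 3.23 to 3.78 in the clones (median 3.66), 3.96 and 4.09 in MEF, 3.92 and 3.82 in MPSVII ES and 3.71 in B6 Blu ES. Its clone arrays lay below both MEF arrays, but the difference of -0.44 ± 0.17 did not pass the test (adjusted p = 0.0771). It passed when replicate 1 of clone 1 or of clone 2 was left out (-0.50 and -0.49).

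Of the enzymes that trim sugar chains and glycogen, Aga, Fuca1, Man2b1 and Gaa fell in the clones, and Neu1 and Manba did not pass the test. Aga, which cuts the link between asparagine and the sugar chain of glycoproteins, was at 5.86 to 6.55 in the clones (median 6.42), 9.78 and 9.38 in MEF, 6.71 and 6.19 in MPSVII ES and 6.65 in B6 Blu ES, a difference of -3.27 ± 0.17 (adjusted p = 1.72e-07). Fuca1, alpha-L-fucosidase, was at 4.77 to 5.41 in the clones (median 5.02), 7.79 and 7.31 in MEF, 5.22 and 5.38 in MPSVII ES and 4.80 in B6 Blu ES, a difference of -2.52 ± 0.18 (adjusted p = 1.34e-06). In both genes MEF stood apart and the pluripotent lines overlapped. Man2b1, lysosomal alpha-mannosidase, was at 4.50 to 5.74 in the clones (median 5.42), 7.93 and 7.18 in MEF, 5.57 and 5.43 in MPSVII ES and 5.13 in B6 Blu ES, a difference of -2.27 ± 0.22 (adjusted p = 1.33e-05). Gaa, the acid alpha-glucosidase that degrades glycogen, was at 4.23 to 4.68 in the clones (median 4.45), 6.17 and 5.47 in MEF, 4.89 and 4.62 in MPSVII ES and 4.60 in B6 Blu ES, a difference of -1.39 ± 0.20 (adjusted p = 0.000218; -0.79 after quantile normalization). Both fell in the clones, whose arrays did not overlap those of MEF. Neu1, the sialidase that removes terminal sialic acids, was below the median of its array throughout, at 3.13 to 3.61 in the clones (median 3.41), 3.87 and 3.53 in MEF, 3.51 and 3.50 in MPSVII ES and 3.33 in B6 Blu ES, and its difference of -0.31 ± 0.17 did not pass (adjusted p = 0.207).

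Manba, the beta-mannosidase that removes the last mannose of N-linked chains, did not pass as lower in the clones. Its signal (row 6901609) was 4.95 to 6.49 in the clones (median 5.38), 5.84 and 5.40 in MEF, 6.39 and 7.0 in MPSVII ES and 5.01 in B6 Blu ES. MPSVII ES was the highest line, clone 6 came next at 6.05 and 6.49, and MEF lay among the other clones. The clones differed from MEF by -0.06 ± 0.22 (adjusted p = 0.882), a value that turned to 0.55 after quantile normalization (adjusted p = 0.0245). In MPSVII ES it was higher than in MEF by 1.07 ± 0.28 (adjusted p = 0.0164), a call lost without MEF replicate 2 (0.85) and without MPSVII ES replicate 2 (0.76). On the deposited values it was the 1 gene of the set that passed as higher in a comparison with MEF.

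Enzymes acting on proteins were lower in the clones as well. Ppt1, which removes fatty acids from proteins, was at 5.26 to 6.52 in the clones (median 5.89), 9.44 and 8.82 in MEF, 6.25 and 6.70 in MPSVII ES and 5.84 in B6 Blu ES, a difference of -3.20 ± 0.27 (adjusted p = 4.66e-06). It was the 1 gene with 2 rows, and with the mean of both the difference was -1.60. Tpp1, a peptidase that cuts tripeptides from protein ends, was at 5.33 to 5.98 in the clones (median 5.53), 8.64 and 8.32 in MEF, 6.39 and 6.27 in MPSVII ES and 5.53 in B6 Blu ES, a difference of -2.87 ± 0.18 (adjusted p = 6.03e-07). Its clone arrays lay below both MPSVII ES arrays, which lay below MEF.

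The 4 activators and luminal proteins were all lower in the clones than in MEF, where 27.0% of all rows were lower. Their median was -3.27. Psap, whose precursor is cut into the saposins that present lipids to hydrolases, was at 4.38 to 5.36 in the clones (median 4.86), 9.32 and 8.22 in MEF, 6.12 and 5.94 in MPSVII ES and 4.89 in B6 Blu ES. Its difference was -3.89 ± 0.24, or 14.8-fold lower (adjusted p = 4.87e-07), and MPSVII ES lay between the clones and MEF without overlap. Grn, the progranulin precursor, which is secreted and also delivered to lysosomes, was at 4.75 to 6.05 in the clones (median 5.72), 9.63 and 8.90 in MEF, 7.18 and 6.89 in MPSVII ES and 5.89 in B6 Blu ES, a difference of -3.70 ± 0.25 (adjusted p = 8.87e-07; row 6784345). Npc2, which hands cholesterol to Npc1, was at 5.77 to 7.29 in the clones (median 6.63), 9.64 and 9.18 in MEF, 6.92 and 7.14 in MPSVII ES and 6.18 in B6 Blu ES, a difference of -2.83 ± 0.28 (adjusted p = 1.51e-05). In Npc2 the clones and MPSVII ES overlapped and both lay below MEF. Gm2a, the activator that lifts ganglioside GM2 to Hexa, was at 4.03 to 5.24 in the clones (median 4.96), 5.94 and 5.51 in MEF, 4.85 and 4.91 in MPSVII ES and 4.74 in B6 Blu ES. Its difference of -0.90 ± 0.22 passed (adjusted p = 0.00746), and the call was lost after quantile normalization (-0.33) and without MEF replicate 1 (-0.69). After loess normalization it was -0.51.

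Against MEF all 9 membrane protein genes with a row fell in the clones, where 27.0% of all rows were lower. Their median was -1.63. Lamp1 and Lamp2 are heavily glycosylated proteins that line the lysosomal membrane. Lamp2 (row 7016416), encoded on the X chromosome, was at 7.56 to 8.94 in the clones (median 8.28), 11.16 and 11.15 in MEF, 7.76 and 7.65 in MPSVII ES and 7.92 in B6 Blu ES, a difference of -2.83 ± 0.16 (adjusted p = 2.64e-07). Lamp1, with its 4 copies of CACGTG, was at 6.85 to 8.03 in the clones (median 7.28), 10.26 and 9.72 in MEF, 8.38 and 8.34 in MPSVII ES and 7.46 in B6 Blu ES, a difference of -2.66 ± 0.22 (adjusted p = 4.57e-06). The related genes differed in order: in Lamp1 both MPSVII ES arrays lay above all clone arrays, and in Lamp2 they lay below all clone arrays but 1.

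Npc1, which moves cholesterol out of the lysosome, was at 4.85 to 5.88 in the clones (median 5.65), 7.86 and 6.72 in MEF, 5.59 and 5.78 in MPSVII ES and 5.35 in B6 Blu ES, a difference of -1.82 ± 0.25 (adjusted p = 0.000188; -1.20 after quantile normalization). Scarb2, which carries beta-glucocerebrosidase to the lysosome, was at 5.09 to 7.0 in the clones (median 5.88), 7.84 and 7.59 in MEF, 6.29 and 5.74 in MPSVII ES and 5.90 in B6 Blu ES, a difference of -1.70 ± 0.23 (adjusted p = 0.000137; -1.06 after quantile normalization; row 6940006). Of the related genes Laptm4a and Laptm4b, which encode membrane proteins of late endosomes and lysosomes, the former was at 8.11 to 8.64 in the clones (median 8.51), 10.01 and 10.14 in MEF, 8.31 and 8.39 in MPSVII ES and 8.34 in B6 Blu ES, a difference of -1.63 ± 0.16 (adjusted p = 1.28e-05). These 3 genes kept MEF above all other lines. Laptm4b was at 5.13 to 6.24 in the clones (median 5.98), 6.72 and 6.97 in MEF, 5.64 and 5.92 in MPSVII ES and 5.36 in B6 Blu ES, a difference of -1.02 ± 0.18 (adjusted p = 0.000853). Its call was lost after quantile normalization (-0.34), and after loess normalization the value was -0.54. Cd164, a sialomucin of endosomes and lysosomes, was at 8.53 to 9.23 in the clones (median 8.97), 10.07 and 9.97 in MEF, 8.77 and 8.91 in MPSVII ES and 9.01 in B6 Blu ES, a difference of -1.07 ± 0.14 (adjusted p = 0.000139).

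Mcoln1 and Cln3 had the smallest differences of the membrane proteins. Mcoln1, a channel that releases calcium from the lysosome, was at 4.65 to 5.35 in the clones (median 5.05), 6.34 and 5.72 in MEF, 5.68 and 5.78 in MPSVII ES and 5.23 in B6 Blu ES, a difference of -0.98 ± 0.18 (adjusted p = 0.00114; -0.34 and -0.50 after quantile and loess normalization). Cln3, the protein affected in juvenile neuronal ceroid lipofuscinosis, was at 4.07 to 4.87 in the clones (median 4.45), 5.65 and 5.06 in MEF, 4.73 and 5.16 in MPSVII ES and 4.48 in B6 Blu ES, a difference of -0.89 ± 0.21 (adjusted p = 0.00598). For both genes MPSVII ES overlapped MEF, and its difference from MEF did not pass (-0.30 ± 0.22, adjusted p = 0.408, and -0.41 ± 0.26, adjusted p = 0.324). The call of Cln3 in the clones was lost after quantile normalization (-0.39) and without MEF replicate 1 (-0.60), and its value after loess normalization was -0.58.

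All 5 genes of the proton pump fell in the clones relative to MEF, where 27.0% of all rows were lower. Their median was -2.05. Atp6ap1, an X-linked accessory subunit, was at 5.25 to 6.11 in the clones (median 5.61), 9.02 and 8.58 in MEF, 5.73 and 6.10 in MPSVII ES and 5.98 in B6 Blu ES, a difference of -3.16 ± 0.25 (adjusted p = 2.61e-06). Atp6v0d1, a subunit of the part that lies in the membrane, was at 5.05 to 6.59 in the clones (median 5.91), 8.82 and 7.72 in MEF, 6.45 and 7.06 in MPSVII ES and 5.68 in B6 Blu ES, a difference of -2.30 ± 0.40 (adjusted p = 0.000931). The arrays of Atp6v0d1 spread widely within lines, and its error was the largest of the set. Atp6v1a, which forms the catalytic sites, was at 5.30 to 7.29 in the clones (median 6.65), 8.68 and 8.33 in MEF, 6.70 and 7.20 in MPSVII ES and 6.14 in B6 Blu ES, a difference of -2.05 ± 0.28 (adjusted p = 0.000184). Atp6v1b2, its partner in the head of the pump, was at 5.49 to 7.10 in the clones (median 6.42), 8.14 and 7.62 in MEF, 6.66 and 6.95 in MPSVII ES and 6.08 in B6 Blu ES, a difference of -1.51 ± 0.29 (adjusted p = 0.00167; -0.88 after quantile normalization). In these 4 genes MEF lay above all other arrays. Atp6v1h, a regulatory subunit (row 6747314), was at 7.03 to 8.28 in the clones (median 7.84), 8.67 and 8.47 in MEF, 7.65 and 7.76 in MPSVII ES and 7.0 in B6 Blu ES. Its difference of -0.85 ± 0.16 was the smallest of the pump genes (adjusted p = 0.00173), and the call was lost after quantile normalization (-0.25).

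**Figure D3:**
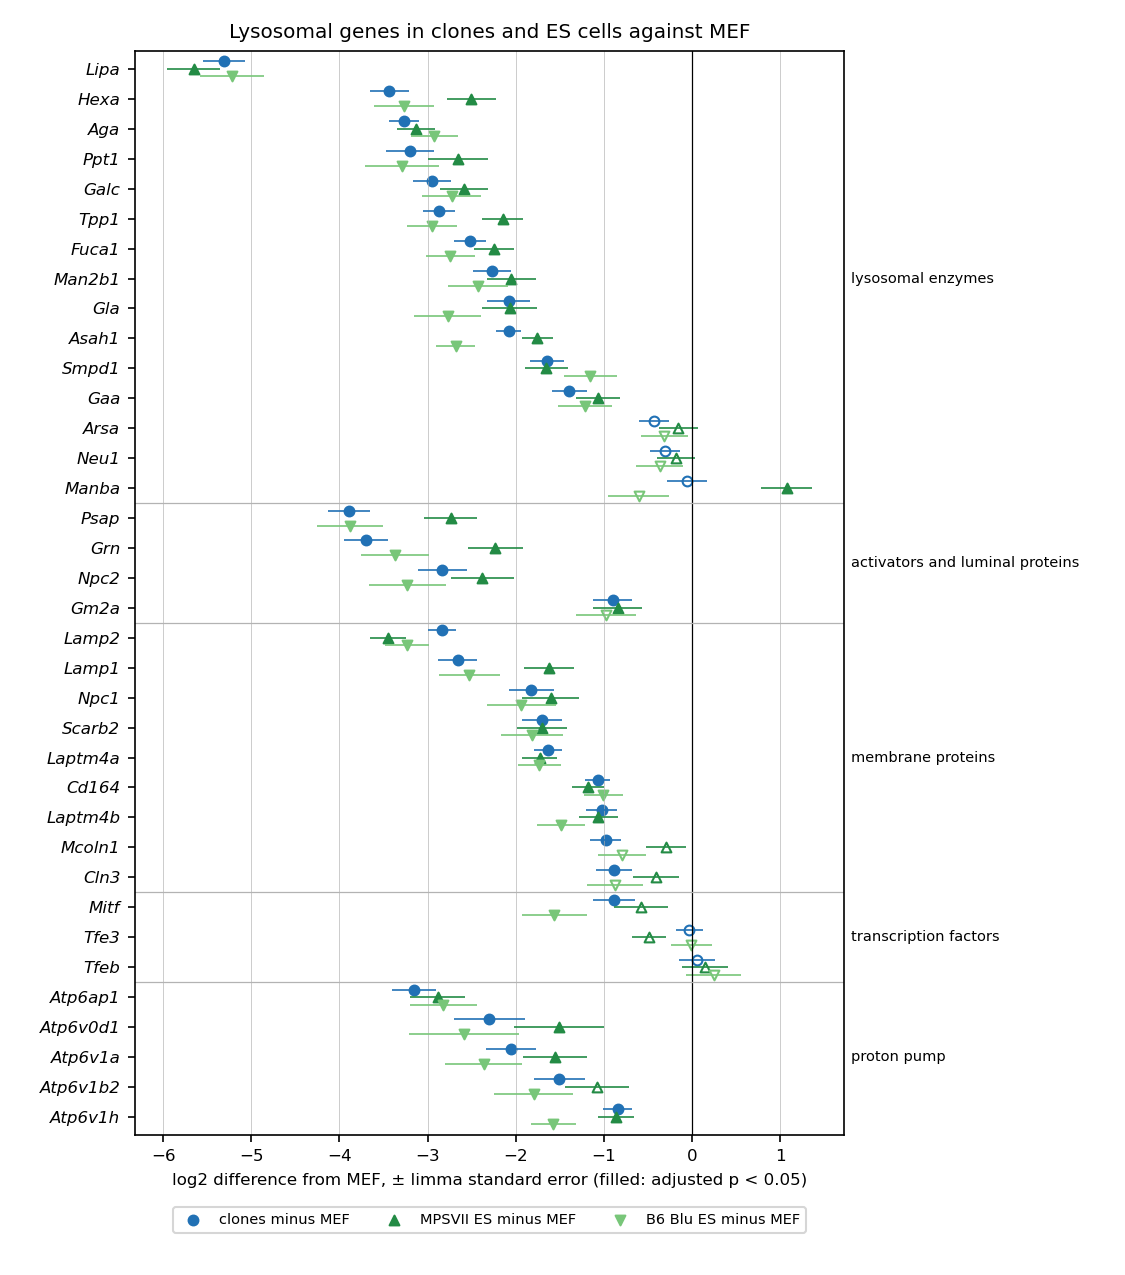
Log2 difference from MEF (x axis, bars are limma standard errors) of each lysosomal gene in the clones, MPSVII ES and B6 Blu ES; filled symbols passed an adjusted p of 0.05. Values run from -5.65 for Lipa to 1.07 for Manba, both in MPSVII ES. In the clones Tfeb, Tfe3 and Manba lie near 0, and quantile normalization turned Tfe3 and Manba to positive values there.

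Further genes of the same pathways were taken from lists. Of 14 other subunits of the proton pump 10 fell in the clones and 0 rose relative to MEF, with a median of -1.13. The largest decreases were Atp6v0d2, a membrane subunit of osteoclasts and macrophages, at -4.28 ± 0.20 (adjusted p = 9.23e-08), and Atp6v0a1, at -2.74 ± 0.24 (adjusted p = 6.11e-06). Of 17 genes of enzyme sorting and maturation 8 were lower and 0 higher, with a median of -0.42. Igf2r, the large mannose 6-phosphate receptor, was at 3.99 to 4.71 in the clones (median 4.62) and 8.06 and 7.25 in MEF, a difference of -3.19 ± 0.24 (adjusted p = 1.79e-06), and the sodium and proton exchanger gene Slc9a9 differed by -2.68 ± 0.26 (adjusted p = 1.54e-05). Of 21 genes of nutrient signalling at the lysosome 10 were lower and 0 higher, with a median of -0.47, led by Tfec and by Rragc, a small GTPase that recruits mTORC1 and TFEB, at -2.45 ± 0.20 (adjusted p = 3.01e-06). Against a background of 27.0% lower rows these counts were larger in all 3 lists, and the medians lay above that of the set itself. In MPSVII ES minus MEF the same lists had 9 of 14, 7 of 17 and 7 of 21 genes lower and 0 higher. Over all rows 20.0% were lower and 6.70% higher there. In B6 Blu ES minus MEF 10 of 14, 7 of 17 and 6 of 21 genes were lower and 0 higher. The shares of all rows were 18.0% lower and 3.30% higher.

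With 1 array left out, 23 to 29 genes of the set passed in MPSVII ES minus MEF and 23 to 30 in B6 Blu ES minus MEF, both fewest without MEF replicate 1. Lipa was the gene furthest below MEF, at -5.65 ± 0.30 in MPSVII ES (adjusted p = 4.97e-07) and -5.22 ± 0.37 in B6 Blu ES (adjusted p = 8.25e-06). In MPSVII ES Lamp2 came next, at -3.45 ± 0.20 (adjusted p = 9.02e-07), and in B6 Blu ES Psap, at -3.88 ± 0.37 (adjusted p = 5.44e-05). Psap was at -2.74 in MPSVII ES, and Lamp2 at -3.23 in B6 Blu ES.

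The 5 genes that were lower than MEF in the clones but not in both ES lines were Gm2a, Cln3, Mcoln1, Mitf and Atp6v1b2. Mitf was at -0.58 ± 0.30 in MPSVII ES (adjusted p = 0.215) and -1.56 ± 0.37 in B6 Blu ES (adjusted p = 0.0121), a call lost without MEF replicate 1 (-1.25). Atp6v1b2 was at -1.08 ± 0.36 (adjusted p = 0.0504) and -1.80 ± 0.45 (adjusted p = 0.0146) in the same order, the latter also lost without MEF replicate 1 (-1.54). Both thus passed in B6 Blu ES and missed the threshold in MPSVII ES. Gm2a passed in MPSVII ES, at -0.85 ± 0.28 (adjusted p = 0.0442), and missed it in B6 Blu ES, at -0.98 ± 0.34 (adjusted p = 0.0654). Its call in MPSVII ES was lost in 11 of 23 alternatives, with values from -1.06 to -0.38, among them 7 fits with 1 array left out (either array of clone 1, of clone 5 and of MPSVII ES, and MEF replicate 1). Atp6v0d1, counted among the 26 genes lower in all 3 comparisons, was at the threshold in MPSVII ES, at -1.51 ± 0.51 (adjusted p = 0.0496). That call was lost in 12 of 24 alternatives, among them the same 7 fits with 1 array left out, and the value was -0.96 without MEF replicate 1. The calls of Ppt1 in both ES lines were lost with the mean of its 2 rows (-1.36 in MPSVII ES and -1.56 in B6 Blu ES). Cln3 and Mcoln1 passed in neither ES line, and in B6 Blu ES they were at -0.88 ± 0.32 (adjusted p = 0.0817) and -0.79 ± 0.27 (adjusted p = 0.0653). Arsa, Neu1, Tfeb, Tfe3 and Manba were lower in none of the 3 comparisons.

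The clones were then compared with MPSVII ES, the comparison the design text names. Of the 36 genes 2 were lower in the clones (5.56%) and 0 higher, where 0.720% of all rows were lower and 0.318% higher, and the median difference was -0.28, against -0.03 for all rows. At an unadjusted p under 0.05, 11 of the 36 genes differed, against 12.1% of all rows. Grn fell to a difference of -1.47 ± 0.25 (adjusted p = 0.0258), with the clone arrays at 4.75 to 6.05 and MPSVII ES at 7.18 and 6.89. The groups did not overlap. The call of Grn was lost without either array of MPSVII ES (-1.32 and -1.61), without either array of clone 1 (-1.46 and -1.48), without clone 5 replicate 2 (-1.45) and when all rows of the table were tested. Manba differed by -1.13 ± 0.22 (adjusted p = 0.0456), with clone 6 overlapping MPSVII ES and the other clones below. Its call was lost whichever of the 12 arrays of the lines with 2 was left out, with values from -1.43 without MPSVII ES replicate 1 to -0.82 without MPSVII ES replicate 2, and with the replicate number as a block (adjusted p = 0.0668).

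Further genes of the set had an unadjusted p under 0.05 in this comparison. Psap differed by -1.15 ± 0.24 (adjusted p = 0.0543), Lamp1 by -1.03 ± 0.22 (adjusted p = 0.062) and Hexa by -0.93 ± 0.22 (adjusted p = 0.082). Tpp1 was at -0.72 ± 0.18 (adjusted p = 0.107) and Mcoln1 at -0.68 ± 0.18 (adjusted p = 0.119). Lamp2 differed the other way, by 0.61 ± 0.16 (adjusted p = 0.12), as did Tfe3, by 0.46 ± 0.15 (adjusted p = 0.231). The remaining 2, Cln3 and Asah1, were at -0.48 (adjusted p = 0.382) and -0.33 (adjusted p = 0.391). None of these 9 passed on the deposited values. Psap, Lamp1 and Lamp2 passed under each of the 3 other scalings, Hexa under median centring and loess, Tfe3 under quantile and loess, and Mcoln1 under quantile. In 7 genes all 8 clone arrays lay below both MPSVII ES arrays, against 5.28% of all rows, namely Hexa, Arsa, Tpp1, Psap, Grn, Lamp1 and Mcoln1. In 1 gene, Tfe3, they lay above, against 2.28% of all rows.

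**Figure D4:**
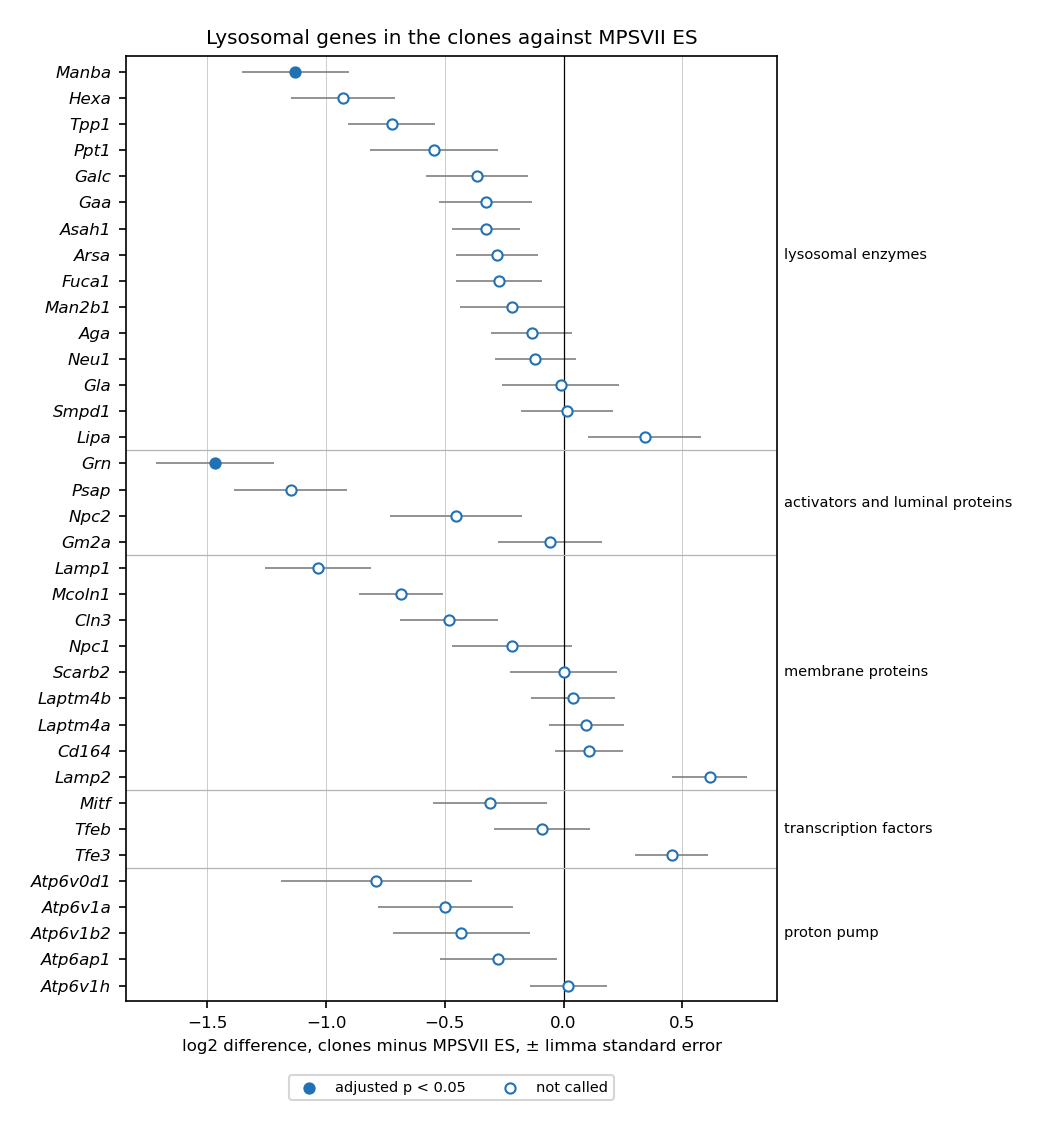
Log2 difference of each lysosomal gene between the mean of the 4 clones and MPSVII ES (x axis, bars are limma standard errors), grouped by role. The filled symbols, Grn at -1.47 and Manba at -1.13, passed an adjusted p of 0.05, and 27 of the 36 genes have a negative value.

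Against the other ES line, B6 Blu, no gene of the set passed. In the clones minus B6 Blu ES 0 of 36 genes passed (limma), where 0.204% of all rows did, 2 had an unadjusted p under 0.05, against 10.1% of all rows, and the median was 0.08. Grn was at 5.89 in B6 Blu ES, inside the range of the clones, and differed from them by -0.33 ± 0.33 (adjusted p = 0.861). Manba was at 5.01, near the lowest clone array, a difference of 0.55 ± 0.30 (adjusted p = 0.609). In MPSVII ES minus B6 Blu ES 0 genes passed (limma), where 0.204% of all rows did, 9 had an unadjusted p under 0.05, against 9.44% of all rows, and the median was 0.44. The largest value was that of Manba, 1.68 ± 0.35 (adjusted p = 0.104). Psap and Grn followed with 1.14 ± 0.37 (adjusted p = 0.318) and 1.14 ± 0.39 (adjusted p = 0.345). B6 Blu ES has a single array, its array was assumed to vary as much as those of the lines with 2, and the comparisons of the clones and of B6 Blu ES with MPSVII ES share the MPSVII ES arrays.

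Among the 4 clones 3 of the 36 genes differed by limma's moderated F test, a share no larger than the 9.01% of all rows. These were Lamp2, Scarb2 and Atp6v1h. Lamp2 was highest in clone 5, at 8.94 and 8.72, then in clone 1, at 8.41 and 8.63, clone 6, at 8.10 and 8.15, and clone 2, at 8.03 and 7.56, a range of means of 1.03 (adjusted p = 0.0322). Scarb2 was highest in clone 6, at 6.67 and 7.0, and lowest in clone 2, at 5.09 and 5.56, with clones 5 and 1 between at 6.37 and 5.66 and at 5.84 and 5.92, a range of 1.51 (adjusted p = 0.0349). Clones 1 and 5 did not differ beyond their spread in Scarb2. Atp6v1h was lower in clone 2, at 7.11 and 7.03, than in clones 1, 5 and 6, at 7.84 and 8.28, at 8.07 and 7.84 and at 7.69 and 7.93, a range of 0.99 (adjusted p = 0.036). The other 3 clones overlapped. All 3 calls were lost without clone 2, after quantile normalization and with the replicate number as a block. Leaving out 1 array also lost calls: that of Lamp2 without either array of clones 5 and 6 and of MPSVII ES and without replicate 2 of clones 1 and 2 (8 fits), that of Scarb2 without either array of clones 1, 2 and 6 and of MEF (8 fits), and that of Atp6v1h without either array of clones 2, 5 and 6 and of MPSVII ES and without replicate 2 of clone 1 (9 fits).

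**Figure D5:**
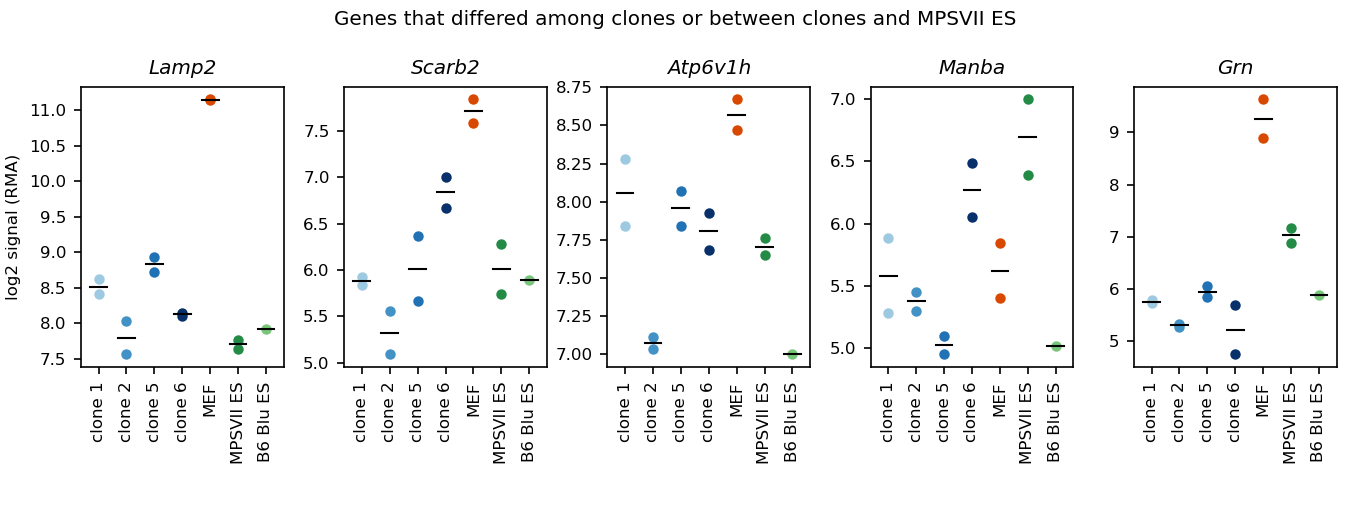
Log2 signal (y axis, with its own range in each panel) of Lamp2, Scarb2, Atp6v1h, Manba and Grn by line; points are arrays and bars line means. Atp6v1h is at 7.11 or lower in clone 2 and B6 Blu ES and at 7.65 or higher elsewhere, and Grn is higher in MPSVII ES than in the clones and in B6 Blu ES.

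Clone 2 was the low clone for most of the set. In 30 of 36 genes its mean lay below that of the 4 clones, with a median deviation of -0.25, against 10, 12 and 16 genes for clones 1, 5 and 6. Over all rows clone 2 was below in 9449 of 16661, with a median of -0.04. The proton pump genes deviated furthest in clone 2, with a median of -0.60 and 4 of 5 genes below, while the 3 transcription factors were all above the clone mean there, with a median of 0.18. The arrays of clone 2 also had the narrowest spread of values of all arrays, with an interquartile range down to 1.70, against up to 2.83 for MEF, and fibroblast markers in 13 of 14 cases above the mean of the clones. Pluripotency markers were below it in 14 of 15. The part of these features in the lower lysosomal values was not tested.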

How the data were processed

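Gene expression was measured on 13 Affymetrix Mouse Exon 1.0 ST arrays. The deposited values are log2 signals made by RMA in Affymetrix Expression Console, per the submitters' processing notes, with versions not given. The table holds 23238 rows, of which 6577 array controls were left out and 16661 tested. The platform annotation names a lone gene for 14939 rows tested, several for 989 and none for 733. No value was transformed further.

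With 1 mean for each line, all rows were fitted together in limma 3.58.1 in R 4.3.3 (6 residual degrees of freedom), with Benjamini-Hochberg adjustment over all rows and a threshold of 0.05. The clones' mean weighs the 4 clones equally. The number of arrays limits the precision: the median residual SD was 0.252, and arrays of a line correlated at 0.955 to 0.982. No 2 columns were identical (0 pairs). The fit was checked on simulated data with 200 changed rows. Of 2-fold changes it recovered 71% in the clones minus MEF and 66% in the clones minus MPSVII ES. In MPSVII ES minus MEF it recovered 31%. With B6 Blu ES it recovered 14% against MEF, 24% against the clones and 12% against MPSVII ES. A gene that did not pass may therefore still differ. Changes of 2 in log2 signal were recovered in 87% to 100% of cases, depending on the comparison. Far more rows than 200 were called in the comparisons with MEF, so the simulated rates need not hold there. Promoter sequences are from RefSeq (GRCm38.p6), matched by symbol for 31 of 39 genes, and Entrez numbers matched 36 genes to RefSeq, 4 of them on the X chromosome. No gene coordinates of the array are printed, since its build is not given in the sources used here.

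The members, the pathway lists and the lists of macrophage, fibroblast, pluripotency, endothelial, melanocyte and osteoclast markers were chosen with earlier results of these data known. All members with a row are named. Of each other list up to 4 genes are named, the 2 largest increases and 2 largest decreases among those called in the clones minus MEF. Sequences follow the rule that a window holds the full palindrome, extended to the core after the matches were seen. Alternatives were quantile normalization, median centring, loess normalization (span 0.3), the replicate number as a block, leaving out each array, rows with a mean of at least 5, rows with 1 symbol, all rows, a trended robust prior, the compared lines alone, array weights, no clone 2, and the mean of a gene's rows.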

Additional observations from a re-analysis of the deposited data

Results flagged for a closer look

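Grn and Manba differed between the clones and MPSVII ES. Grn was at -1.47 (adjusted p = 0.0258, limma) in the clones minus MPSVII ES, lower on all 8 clone arrays. Manba was at -1.13 (adjusted p = 0.0456, limma), and clone 6 overlapped MPSVII ES. The call of Grn was lost in 6 of 24 alternatives and that of Manba in 17 of 24. Neither gene passed in the clones minus B6 Blu ES.

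Among the clones the means of Lamp2 spanned 1.03 (adjusted p = 0.0322), those of Scarb2 1.51 (adjusted p = 0.0349) and those of Atp6v1h 0.99 (adjusted p = 0.036), by limma's moderated F test. Clone 2 was the lowest clone in all 3 genes. These were 3 of 36 genes, a share no larger than the 9.01% of all rows that differed. All 3 calls were lost without clone 2, after quantile normalization and with the replicate number as a block.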

How the results depend on the processing

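Over 24 alternatives and 5016 values of the 36 genes, 77 lost their call, 46 gained one and 2 reversed: after quantile normalization the clones minus MEF gave 0.55 for Manba and 0.40 for Tfe3. A further 95 changed sign with neither value called. The median of the set in the clones minus MEF was -1.36 after quantile, -1.67 after median centring and -1.62 after loess normalization. In MPSVII ES minus MEF it was -1.16 after quantile normalization and -1.86 to -1.38 with 1 array left out. In B6 Blu ES minus MEF it was -1.40 after quantile and -1.70 after loess normalization, -2.56 over rows with a mean of at least 5, -1.88 with the mean of a gene's rows and -2.52 to -1.92 with 1 array left out. Over all rows the median in the clones minus MEF moved from -0.09 to 0.11, 0.17 and 0.06 after quantile, median and loess scaling, and the set lay 1.47, 1.85 and 1.67 below it.

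In the clones minus MPSVII ES the members called were 7 after quantile, 6 after median centring and 7 after loess normalization, 6 over rows with a mean of at least 5, 8 with array weights, 1 with the trended prior, 1 with the replicate block, 0 over all rows of the table and 0 to 2 with 1 array left out. The rows called, 173 as reported, were 455, 309 and 412 after these scalings, 299, 446, 114 and 22 for the rows with a mean of at least 5, array weights, block and all rows, and 6 (without MPSVII ES replicate 1) to 183 with 1 array left out. In the clones minus B6 Blu ES the rows called, 34 as reported, were 246, 122 and 146 after the scalings, 109 over rows with a mean of at least 5, 19 over all rows, 18 with the compared lines alone, 147 without clone 2 and 20 to 47 with 1 array left out. Rows called between the 2 ES lines, also 34, were 186, 87 and 110, then 97 over rows with a mean of at least 5, 10 over all rows, 6 with the compared lines alone, 84 with array weights and 6 to 49 with 1 array left out. There 1 member was called after quantile normalization and 1 over rows with a mean of at least 5, where the median of the set was 0.70.

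Among the clones the members called were 5 after median centring, 6 over rows with a mean of at least 5, 0 with the block, over all rows, with the compared lines alone and without clone 2, and 0 to 3 with 1 array left out. The rows called, 1501 as reported, were 927 over all rows, 784 with the compared lines alone, 134 without clone 2 and 487 to 1352 with 1 array left out. Rows with a mean of at least 5 gave 3087, 2513 and 2223 calls in the clones, MPSVII ES and B6 Blu ES minus MEF, as fewer rows were tested. Elsewhere the cause was not tested.

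Of the fits with 1 array left out, that without MEF replicate 1 gave the smallest median difference of the set from MEF in all 3 comparisons. The block was fitted to the 12 numbered arrays, without B6 Blu ES, and 31 members were called in the clones minus MEF. Deviations of same-numbered arrays correlated at -0.24 to 0.24 over 15 pairs of lines, and 4 pairs exceeded 0.1. The signs were mixed, which shows no pairing common to all lines but cannot exclude a pairing of some. Signal near background limits what can be seen for rows near or below the array median, such as Tfeb, Arsa, Neu1, and Galc and Lipa outside MEF. The rest is limited by 2 arrays per line.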

Other observations

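Against MEF 2 of 8 endothelial markers fell in the clones, Emcn at -1.34 and Kdr at -0.48, and 2 rose, Pecam1 at 1.85 and Tek at 0.81, where 27.0% of all rows were lower and 7.78% higher. Of 6 osteoclast markers 1 fell, the cathepsin gene Ctsk at -5.04 (adjusted p = 2.3e-07), with 8.71 and 8.20 on the MEF arrays and 2.70 to 4.18 in the clones. Of 5 melanocyte markers 0 passed by limma in the clones minus MEF.

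The 2 MEF arrays differed from each other. The lysosomal genes were higher on the first in 32 of 36 cases, with a median difference of 0.47, against 0.08 for all rows. The median was 0.46 for the fibroblast markers, with 13 of 14 higher there, and 0.19 for the macrophage markers, with 14 of 15 higher.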
